A study of Mus musculus with 9 samples.

Results

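Non-muscle myosin II and the cytoplasmic actins form the contractile machinery that every nucleated cell uses outside the sarcomere. The genes described here are the 3 heavy chains Myh9, Myh10 and Myh14, the light chains Myl6, Myl12a and Myl12b, the light chain kinase Mylk, and the actins Actb and Actg1, which are 9 of the 47729 genes listed in the deposited count files. They were taken by gene symbol. The list was chosen by the level of Myh10, whose CPM had been seen to be nearly 0 in 1 of the 3 cell populations, SRC3. For that reason the differences of these 9 genes that involve this population are described by their values, fold changes and SE, without p-values. How many of them passed the threshold in a fit over all genes is given beside the share of all genes and supports nothing. The question was whether other heavy chains were higher where Myh10 was lower.

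Messenger RNA was sequenced from cultured FVB/N mouse myoblasts, the dividing cells that later fuse into muscle fibres, in 3 populations with 3 libraries each. SRC3 stands for the cells labelled SRCs of cycle 3, FRC1 for those labelled FRCs of cycle 1, and PAR for the parental cells. Both SRC3 and FRC1 are reserve cell populations that, per the labels, had been isolated and then passaged under proliferation conditions before harvest, and no genetic change or drug is named for any group. Reserve cells are those that stay undifferentiated after myoblasts have been made to fuse into myotubes. The labels speak of triplicate libraries and do not say whether these came from separate cultures, so p-values cover the spread among these libraries alone, and part or all of that spread may be technical.

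Non-muscle myosin II is a hexamer of a pair of heavy chains, a pair of essential light chains and a pair of regulatory light chains. Each heavy chain carries a motor domain that pulls on actin and a coiled-coil tail that assembles into bipolar filaments. Phosphorylation of the regulatory light chain, by myosin light chain kinase and other kinases, switches the motor on, and the myosin phosphatase reverses it. In muscle precursors non-muscle myosin II is known for its place in stress fibres and in premyofibrils, the precursors of sarcomeres, which hold non-muscle rather than muscle myosin.

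The sequences just before the RefSeq transcription starts of the 3 heavy chain genes are shown because the results turn on how unequally these 3 genes were used. They are the 250 bases upstream of the start given by RefSeq in GRCm38.p6, written 5′ to 3′ on the strand of the gene, with CG dinucleotides in capitals. The windows are chr11:68691665-68691914 on the plus strand for Myh10, chr15:77842176-77842425 on the minus strand for Myh9 and chr7:44670844-44671093 on the minus strand for Myh14. The Myh10 window lies inside the gene as GENCODE M21 draws it, since the gene there starts at 68691559, before the RefSeq start.
Myh10: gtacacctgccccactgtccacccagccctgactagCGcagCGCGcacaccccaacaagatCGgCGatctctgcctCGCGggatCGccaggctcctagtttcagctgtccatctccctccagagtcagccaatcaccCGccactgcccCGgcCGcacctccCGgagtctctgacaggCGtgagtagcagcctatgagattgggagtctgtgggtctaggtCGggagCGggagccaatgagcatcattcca
Myh9: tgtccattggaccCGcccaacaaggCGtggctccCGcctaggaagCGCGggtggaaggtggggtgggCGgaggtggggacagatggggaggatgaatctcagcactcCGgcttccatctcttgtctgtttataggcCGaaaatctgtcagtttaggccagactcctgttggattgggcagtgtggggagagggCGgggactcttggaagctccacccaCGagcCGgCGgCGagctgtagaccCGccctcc
Myh14: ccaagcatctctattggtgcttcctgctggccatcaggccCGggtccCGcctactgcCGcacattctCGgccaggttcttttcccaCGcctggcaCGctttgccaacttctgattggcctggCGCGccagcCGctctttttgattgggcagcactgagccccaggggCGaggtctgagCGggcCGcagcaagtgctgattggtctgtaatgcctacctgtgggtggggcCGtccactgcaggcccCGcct
The Myh10 window held 15 CG dinucleotides, and the Myh9 and Myh14 windows held 14 each. Among 32851 RefSeq windows of this length the median was 6, 27.3% held at least 15 and 29.4% held at least 14. The 3 windows were thus close to each other in CG content, and a link between CG content and the levels of these genes was not tested. RefSeq windows were matched for 8 of the 9 genes, all but Actb.

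Myh10 (ENSMUSG00000020900, chromosome 11, 68691559 to 68816632, plus strand, GRCm38) encodes the heavy chain of non-muscle myosin IIB. CPM are counts relative to the summed counts of the 12540 genes tested in that library, on the usual CPM scale and with TMM factors. The level of Myh10 was 0.66, 0.771 and 0.532 CPM in SRC3, against 114, 102 and 111 CPM in FRC1 and 132, 135 and 138 CPM in PAR. These values rest on 9, 10 and 7 reads in SRC3, on 1498, 1453 and 1554 reads in FRC1, and on 1889, 1769 and 1937 reads in PAR. All 3 SRC3 libraries were far below every other library, and the 3 FRC1 libraries all lay below the 3 PAR libraries. The log2 fold change was -7.67 for SRC3 against PAR, a level 204-fold lower, and -7.36 for SRC3 against FRC1, a level 164-fold lower. Their SE of 0.11 and 0.12 were derived from the F statistic of the edgeR fit. They understate the error, since SRC3 had only 9, 10 and 7 reads. Of 12540 genes tested, 7 had a lower log2 fold change in SRC3 against PAR. Myh10 was still detected in each SRC3 library, above the 3 counts taken here as the floor of detection. No other annotated gene overlaps Myh10, and 0.689% of the 50-base stretches in its transcripts recur in other genes, chiefly in Myh9.

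FRC1 against PAR, which shares the PAR libraries with the comparison behind the choice of genes, was tested, and here Myh10 fell. Through these shared libraries the p-value of Myh10 is not independent of the choice, which favours a fall. It averaged 109 ± 6.19 CPM in FRC1 and 135 ± 2.72 CPM in PAR (SD, n = 3 each). Its log2 fold change was -0.31 ± 0.05 (SE), or 80.4% of the PAR level, with an adjusted p of 0.000217 in the quasi-likelihood test of edgeR over all genes tested. At this ratio Myh10 lay 1500th from the lowest among 12540 genes. In these bulk libraries, fewer cells that express a gene and less RNA per cell cannot be told apart.

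Myh9 (ENSMUSG00000022443, chromosome 15, 77760587 to 77842175, minus strand) encodes the heavy chain of non-muscle myosin IIA, which forms most filaments at the front and in the body of migrating cells. It was present at 1068, 1396 and 1122 CPM in SRC3, against 1467, 1567 and 1492 CPM in FRC1 and 1489, 1570.2 and 1587 CPM in PAR. Every SRC3 library lay below every FRC1 and PAR library, and SRC3 replicate 2 was nearest to them. The log2 fold change was -0.37 ± 0.08 for SRC3 against PAR, or 77.2% of the PAR level, and -0.34 ± 0.08 for SRC3 against FRC1. Myh9 was therefore lower, not higher, in the population with the least Myh10. FRC1 and PAR overlapped, with a log2 fold change of -0.04 ± 0.08 and an edgeR adjusted p of 0.77.

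Myh14 (ENSMUSG00000030739, chromosome 7, 44605803 to 44670843, minus strand) encodes the heavy chain of non-muscle myosin IIC, which is known chiefly from epithelia and nerve tissue. It had 1, 1 and 1 read in SRC3, against 0, 0 and 1 in FRC1 and 1, 0 and 0 in PAR. Totals of 3, 1 and 1 reads per population are at or under the floor, which corresponded to 0.209 to 0.231 CPM per library. No fold change is given, and Myh14 did not reach the minimum count for a test. A difference in Myh14 was not detectable at this depth, and in no population did its level come near that of Myh9.

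**Figure D1:**
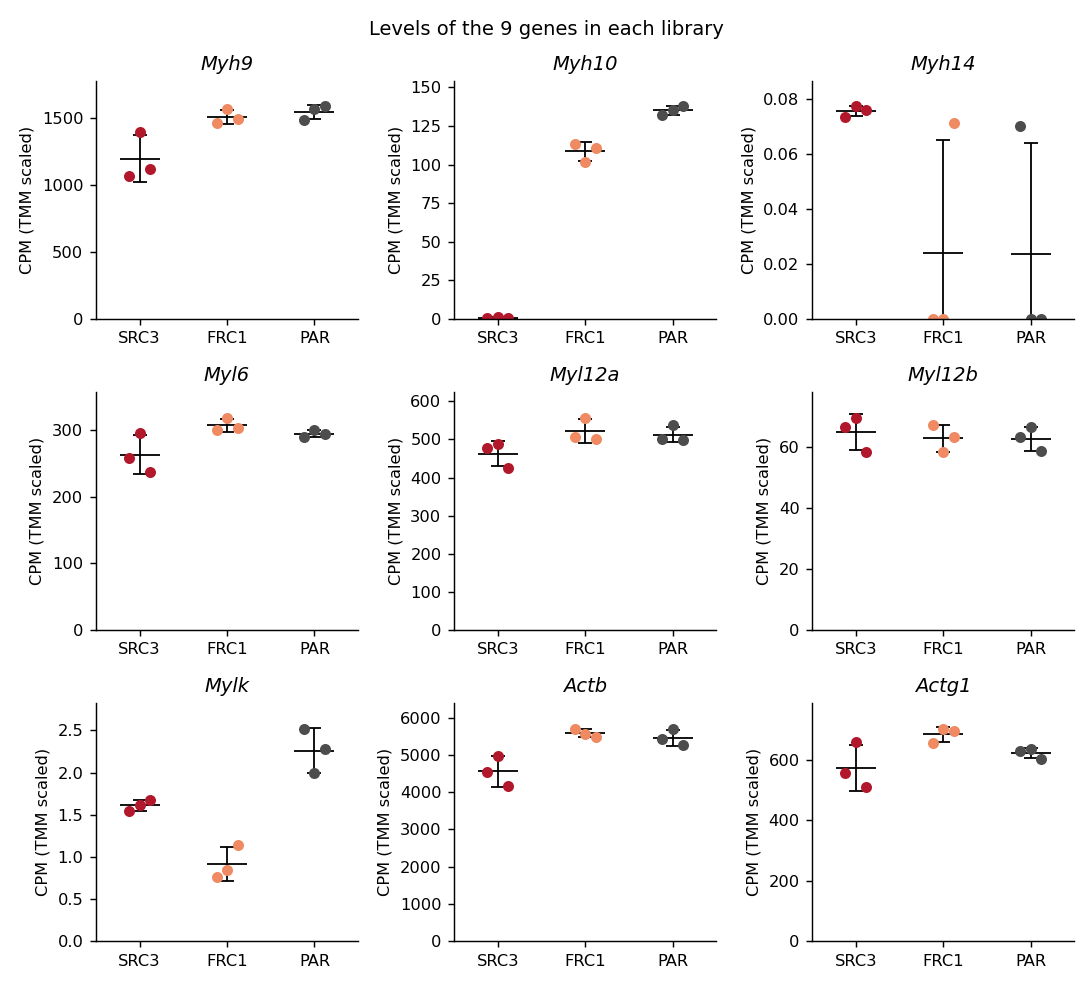
CPM (TMM scaled, linear axes from 0) of the 9 genes in each library of SRC3, FRC1 and PAR; points are libraries, long lines group means and bars 1 SD (n = 3). Myh10 stayed between 0.532 and 0.771 CPM in SRC3, while Myh9 in SRC3 lay between 1068 and 1396 CPM, below every other library.

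To add the heavy chains together, each CPM was divided by the length of the gene's exons in kilobases (12.928 for Myh9, 10.458 for Myh10 and 7.273 for Myh14). The summed level was 82.7, 108 and 86.9 CPM per kb in SRC3, against 124, 131 and 126 CPM per kb in FRC1 and 128, 134 and 136 CPM per kb in PAR. SRC3 averaged 92.5 ± 13.6 CPM per kb, FRC1 127 ± 3.44 and PAR 133 ± 4.32 (SD, n = 3 each). The SRC3 total did not overlap with either of the other populations and came to 0.697 of the PAR total and 0.728 of the FRC1 total. Of the difference between SRC3 and PAR of -40.2 CPM per kb, Myh9 contributed -27.4, Myh10 -12.9 and Myh14 0.00717. By group means the heavy chain message missing from SRC3 was thus for the larger part Myh9. This did not hold in SRC3 replicate 2. There Myh9 was at 107.95 CPM per kb, beside a PAR mean of 119.81, and Myh10 at 0.0738, beside 12.92. Leaving out SRC3 replicate 2, the highest of its group, gave a ratio to PAR of 0.639. With each library left out in turn the ratio ranged from 0.639 to 0.734.

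The FRC1 total came to 0.958 of the PAR total, and these groups overlapped. An exact two-sided permutation test over the 3 and 3 libraries gave p = 0.2, where the smallest p this design allows is 0.1. Within the total, Myh10 made up 0.0677 ± 0.0089% in SRC3, 8.19 ± 0.679% in FRC1 and 9.74 ± 0.137% in PAR (SD, n = 3 each). Taking the longest transcript of each gene as its length gave Myh10 shares of 0.0523% in SRC3, 6.44% in FRC1 and 7.69% in PAR. Myh9 held the remainder in each population, with 99.9% in SRC3, 91.8% in FRC1 and 90.3% in PAR.

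**Figure D2:**
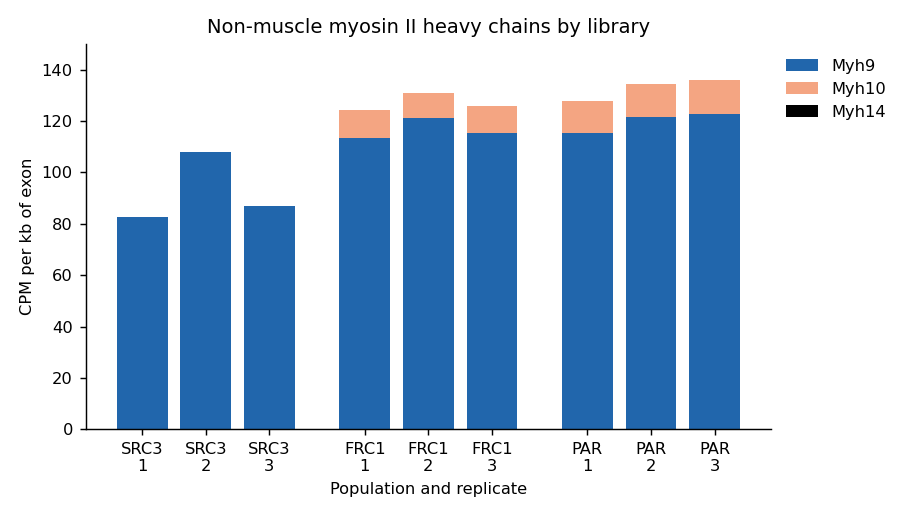
Stacked bars, on a linear axis from 0, of the CPM per kb of exon of Myh9, Myh10 and Myh14 in each library of SRC3, FRC1 and PAR. The Myh10 block is visible in FRC1 and PAR and too thin to see in SRC3, Myh14 is too low to see in any library, and the SRC3 bars of 82.7 to 108 CPM per kb are all shorter than the others.

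The essential light chain Myl6 (ENSMUSG00000090841, chromosome 10, 128490860 to 128494145, minus strand) binds nearest the motor domain and stiffens the lever arm. It was at 258, 296 and 237 CPM in SRC3, against 301, 319 and 303 CPM in FRC1 and 290.4, 301 and 294 CPM in PAR. SRC3 lay below FRC1 without overlap but reached into the range of PAR through replicate 2. The log2 fold change was -0.16 ± 0.06 for SRC3 against PAR and -0.22 ± 0.06 for SRC3 against FRC1. FRC1 against PAR gave 0.06 ± 0.06, with an edgeR adjusted p of 0.51.

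The regulatory light chains Myl12a (ENSMUSG00000024048, chromosome 17, 70993656 to 71002878, minus strand) and Myl12b (ENSMUSG00000034868, chromosome 17, 70973133 to 70990890, minus strand) are close neighbours that encode near-identical proteins, the ones that kinases phosphorylate. Myl12a was at 476, 487 and 425 CPM in SRC3, against 507, 557 and 501 CPM in FRC1 and 502, 537 and 499.6 CPM in PAR. All SRC3 libraries were below all others, with log2 fold changes of -0.15 ± 0.06 against PAR and -0.17 ± 0.06 against FRC1. Myl12b was at 66.7, 69.7 and 58.3 CPM in SRC3, against 67.2, 58.4 and 63.2 CPM in FRC1 and 63.2, 66.5 and 58.7 CPM in PAR, and the 3 groups overlapped. Its log2 fold change in SRC3 was 0.05 ± 0.07 against either population. Neither gene passed the edgeR test in FRC1 against PAR, with log2 fold changes of 0.02 ± 0.06 for Myl12a (adjusted p = 0.78) and 0.0024 ± 0.07 for Myl12b (adjusted p = 0.99). Per length Myl12a was the main regulatory light chain in each population, with 85.5% of their summed CPM per kb in SRC3, 87.2% in FRC1 and 87.1% in PAR. Reads that aligned to several places were set apart from gene counts. Of the 50-base stretches of Myl12a 21.1%, and of those of Myl12b 25.4%, recur in other gene entries. For Myl12b all 691 of these recur in a second, overlapping entry of the same name, and 192 also in Myl12a. How reads there were counted depends on the annotation used, which is not given. Myl12a also overlaps Myom1 and Gm26561 on the opposite strand, and the strand setting is not given. These levels are thus uncertain.

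Mylk (ENSMUSG00000022836, chromosome 16, 34745210 to 35002420, plus strand) encodes the calcium- and calmodulin-dependent kinase of the regulatory light chain. Its message was scarce, at 1.54, 1.62 and 1.67 CPM in SRC3, against 0.758, 0.84 and 1.14 CPM in FRC1 and 2.52, 1.99 and 2.27 CPM in PAR, on 10 to 36 reads per library. The 3 populations did not overlap, with FRC1 the lowest and PAR the highest. Against PAR, it fell in FRC1, with a log2 fold change of -1.30 ± 0.27, a level 2.46-fold lower, and an edgeR adjusted p of 0.00113. SRC3 gave a log2 fold change of -0.49 ± 0.24 against PAR and of 0.81 ± 0.29 against FRC1, so that Mylk did not follow Myh10 across the populations. Mylk overlaps 3 antisense genes, and without the strand setting of the counting their reads cannot be told apart.

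Actb (ENSMUSG00000029580, chromosome 5, 142903115 to 142906754, minus strand) and Actg1 (ENSMUSG00000062825, chromosome 11, 120345690 to 120348542, minus strand) encode beta and gamma cytoplasmic actin, the filaments on which these myosins pull. Actb was at 4541, 4978 and 4159 CPM in SRC3, against 5705, 5572 and 5477 CPM in FRC1 and 5424, 5702 and 5279 CPM in PAR. Every SRC3 library was below every other, with log2 fold changes of -0.26 ± 0.05 against PAR, or 83.4% of the PAR level, and -0.29 ± 0.05 against FRC1. Actb alone took 0.456% of all gene counts in SRC3, 0.559% in FRC1 and 0.544% in PAR. FRC1 and PAR overlapped, with a log2 fold change of 0.03 ± 0.05 and an edgeR adjusted p of 0.72.

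Actg1 was at 555, 658 and 509 CPM in SRC3, against 655, 703 and 696 CPM in FRC1 and 629, 637 and 603 CPM in PAR. SRC3 overlapped with both through replicate 2, and its log2 fold change was -0.12 ± 0.07 against PAR and -0.25 ± 0.07 against FRC1. All FRC1 libraries were above all PAR libraries, with a log2 fold change of 0.14 ± 0.07, which did not pass in edgeR (adjusted p = 0.184). It did pass without SRC3 replicate 2 in the fit (adjusted p = 0.0246), and adjusted p ranged over 0.011 to 0.394 across the settings tried. Per length Actg1 made up 11.2% of the summed cytoplasmic actins in SRC3, 11.0% in FRC1 and 10.3% in PAR. This share is uncertain because 37.4% of the 50-base stretches of Actg1 recur elsewhere, mainly in pseudogenes, and such reads were not counted. The start of Actg1 is shown because it carries a CArG box, the element bound by serum response factor in many actin cytoskeleton genes, here in capitals at 90 bases before the RefSeq start (chr11:120348546-120348605, minus strand, GRCm38.p6).
Actg1: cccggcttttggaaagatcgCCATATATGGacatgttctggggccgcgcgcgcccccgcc
A CArG box, searched on both strands, was found in 1.47% of the 250-base windows. Among the 8 genes matched it was found in the window of Actg1 and in 1 window of Myl6 (chr10:128493010-128493259). The other Myl6 window (chr10:128493887-128494136) held none. Actb had no matched window, so it was not searched.

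Over the 8 genes with enough reads for a test, 2 passed in FRC1 against PAR, both lower (Myh10 and Mylk), where 28.3% of all genes tested passed and 14.7% were lower. In SRC3 against PAR 5 passed, all lower (Myh9, Myh10, Myl6, Myl12a and Actb), beside 37.9% of all genes and 20.2% lower. In SRC3 against FRC1 7 passed, 6 lower and 1, Mylk, higher, beside 33.5% of all genes, 18% lower and 15.5% higher. The SRC3 counts hold Myh10, whose level there led to the choice of genes, so they are no test of the 9 genes and nothing is read from them. The SRC3 counts also moved with single libraries. Without any single PAR library, FRC1 replicate 3, or SRC3 replicate 1 or 3, the SRC3 against PAR count was 3 (Myh9, Myh10 and Actb), and without FRC1 replicate 2 or SRC3 replicate 1 or 3 the SRC3 against FRC1 count was 4. Those 4 were not the same genes in each case, and without SRC3 replicate 3 they were Myh10, Myl6, Actb and Actg1, so that Myh9 no longer passed, with a log2 fold change of -0.29 ± 0.10. The median log2 fold change of the 8 genes was 0.0133 in FRC1 against PAR, -0.21 in SRC3 against PAR and -0.24 in SRC3 against FRC1, beside 0.0034, 0.0057 and -0.00028 over all genes tested.

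Groups did not overlap for 5 of the 8 genes in SRC3 against PAR, all lower, where this held for 49.1% of all genes and 25.4% in that direction. In SRC3 against FRC1 6 did not overlap, beside 42.8% of all genes. Of these 5 were lower, beside 22.9% of all genes, and 1, Mylk, was higher, beside 19.9%. For FRC1 against PAR 3 did not overlap, beside 44.2%, with 2 lower (Myh10 and Mylk), beside 22.4%, and 1 higher (Actg1), beside 21.8%. The order of the SRC3 libraries was similar across these genes, and the same order over all genes was not counted. In SRC3 replicate 2 was the highest of the 3 for 7 of the 8 genes and replicate 3 the lowest for 6. Replicate 2 was also the highest for 5 of the 8 genes in PAR and for 4 in FRC1. The SD of Myh9 was 176 CPM in SRC3, against 52.1 CPM in FRC1 and 52.6 CPM in PAR.

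**Figure D3:**
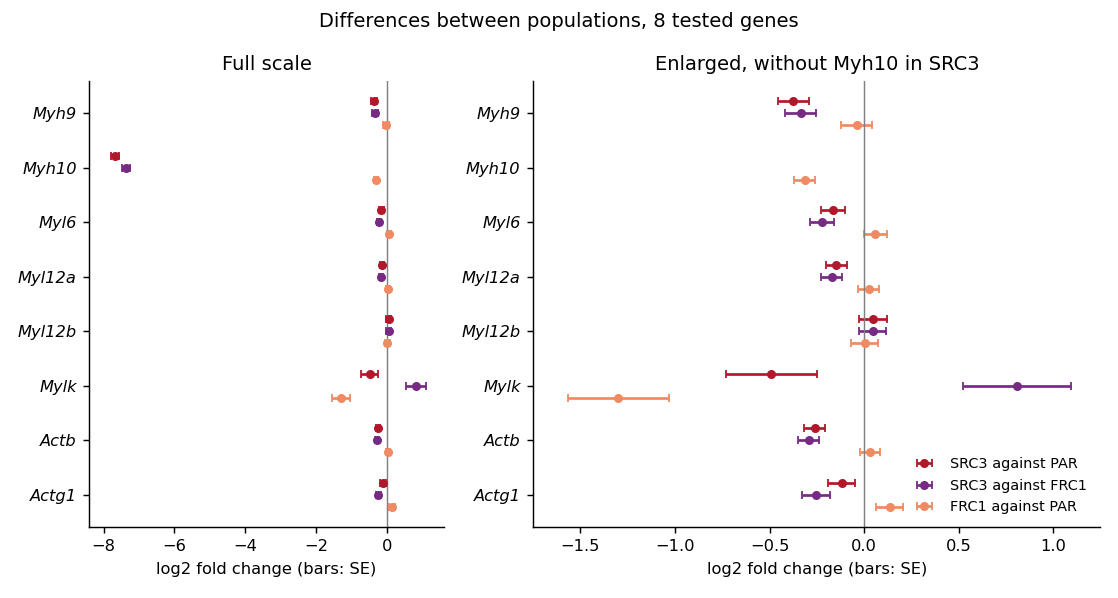
Log2 fold changes with SE bars from the edgeR fit of the 8 genes tested, for SRC3 against PAR, SRC3 against FRC1 and FRC1 against PAR; the right panel enlarges the axis and leaves out Myh10 in the 2 SRC3 comparisons. Myh10 at -7.67 and -7.36 stands apart, while the other genes lie between -1.30 and 0.81. The SE bars of Myh10 in the SRC3 comparisons are too short for its few SRC3 reads.

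The genes whose pattern was most like that of Myh10 over the 9 libraries were sought among 9981 tested genes with a symbol and at least 5 CPM in PAR, by the root mean square difference of log2 CPM centred on PAR. Since Myh10 was chosen for its pattern, this is a description. The nearest was Cdkn2a, which encodes the cell cycle inhibitors p16INK4A and p19ARF, with a difference of 0.654. Its mean was 0.354 CPM in SRC3, 84.0 CPM in FRC1 and 156 CPM in PAR. Gal, which encodes the neuropeptide galanin, followed at 0.743, with 0.101, 11.1 and 18.7 CPM in SRC3, FRC1 and PAR. Cdkn2b, which encodes the inhibitor p15INK4B, followed at 0.783, with 0.128, 51.0 and 89.5 CPM in the same order of populations. Fam73a and Peg12 completed the 5, at 0.837 and 0.903. The names depended on the measure: with a prior count of 0.5 in place of 2, 3 of the 5 were shared, and by Pearson correlation 0 were.

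Genes beside Myh10 on chromosome 11 did not share its large fall in SRC3 against PAR. The 5 nearest tested genes on each side lay up to 1431 kb away (Myh4). In SRC3 against PAR 1 of them was higher, 1 lower and 8 did not pass, beside 17.8% higher and 20.2% lower over all genes tested. The lowest log2 fold change of these neighbours was -0.19 there. In SRC3 against FRC1 2 were higher, 3 lower and 5 did not pass, beside 15.5% higher and 18% lower over all genes. The muscle heavy chains Myh4 and Myh8 gave -5.48 and -3.24 in that comparison (edgeR adjusted p = 6.97e-06 and 0.00014). Myh4 averaged 0.0257 CPM in SRC3, 1.53 CPM in FRC1 and 0.0255 CPM in PAR. Ndel1, a dynein regulator that starts 4.8 kb after the end of Myh10, averaged 63.7 ± 1.16 CPM in SRC3, 75.7 ± 5.29 CPM in FRC1 and 67.0 ± 0.889 CPM in PAR (SD, n = 3 each). Its log2 fold change in SRC3 against PAR was -0.07 ± 0.06 (edgeR adjusted p = 0.346). Ntn1, which encodes the guidance molecule netrin 1 and ends 291 kb before Myh10, gave -0.19 ± 0.06 (edgeR adjusted p = 0.0197), a call lost without PAR replicate 3 or without SRC3 replicate 1 or 3, whose adjusted p ranged from 0.0561 to 0.105. Usp43, a deubiquitinase farther off, rose by 0.97 ± 0.12 (edgeR adjusted p = 2.6e-06). The muscle heavy chain Myh8 passed as higher only in some settings, among them the fit without SRC3 replicate 1 (edgeR adjusted p = 0.00393). Myh4, with 1 read in SRC3 and 1 in PAR, gave 0.04 ± 1.64 in SRC3 against PAR (edgeR adjusted p = 0.986). It gave -1.87 without SRC3 replicate 2, which held its only SRC3 read, so neither value shows a change.

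**Figure D4:**
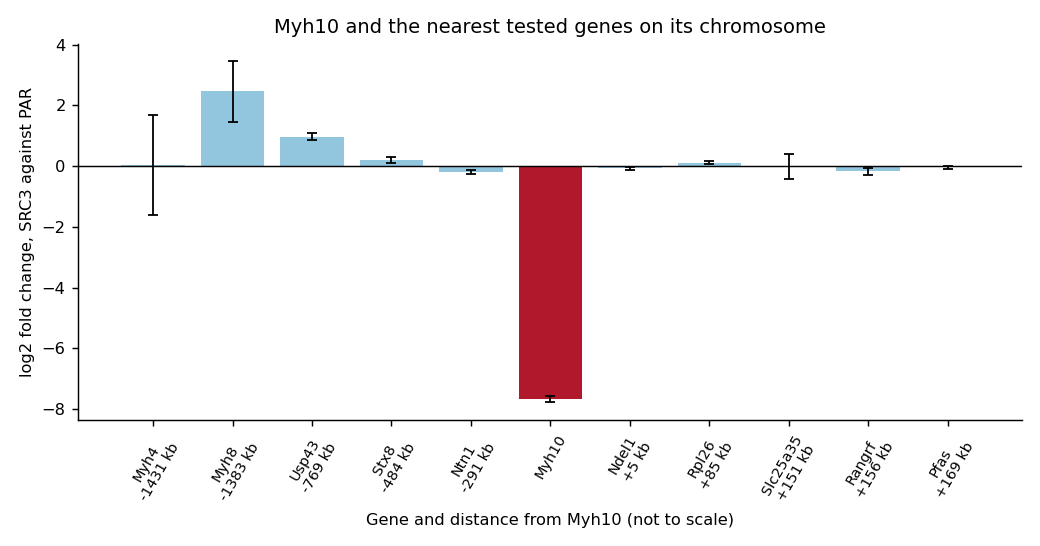
Log2 fold change of SRC3 against PAR, with SE bars, for Myh10 and the 5 nearest tested genes on each side; genes stand in chromosome order, evenly spaced, with the distance from Myh10 in kb. Myh10 reaches -7.67 and no neighbour is below -0.19. The SE bar of Myh10 is too short for its few SRC3 reads.

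The other genes of the machinery were taken as 6 lists, tested in edgeR in all 3 comparisons. The lists were drawn up with earlier results of these data known. Over all genes tested, 17.8% were higher and 20.2% lower in SRC3 against PAR, 15.5% and 18% in SRC3 against FRC1, and 13.6% and 14.7% in FRC1 against PAR, and the share of each list is set against these. Among the light chain kinases, the myosin phosphatase and their regulators, 25 of 28 genes were tested, and in SRC3 against PAR 3 were higher (12%), 9 lower (36%) and 13 did not pass. Cdc42bpa, which encodes the kinase MRCK alpha, fell by 0.85 on the log2 scale, with 69.6 ± 0.806 CPM in SRC3, 103 ± 3.6 CPM in FRC1 and 125 ± 2.18 CPM in PAR (SD, n = 3 each; edgeR adjusted p = 6.22e-11). Ppp1r12a, the targeting subunit of myosin phosphatase, gave a log2 fold change of -0.05 ± 0.06 (edgeR adjusted p = 0.559). In FRC1 against PAR 5 of the 25 were higher (20%) and 5 lower (20%), and 3 were lower without FRC1 replicate 3. In SRC3 against FRC1 2 were higher (8%) and 12 lower (48%), or 7 lower without SRC3 replicate 1.

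2 other light chain kinases were looked at after their values had been seen. Mylk2, the skeletal muscle kinase, had 120 reads in SRC3, 54 in FRC1 and 68 in PAR, with a log2 fold change of 0.88 ± 0.31 in SRC3 against PAR (edgeR adjusted p = 0.0298). That call was lost without PAR replicate 2 or without SRC3 replicate 1 or 3, with adjusted p up to 0.144. Mylk4 had 60 reads in SRC3, 98 in FRC1 and 9 in PAR. In SRC3 it was higher than in PAR by 2.74 ± 0.45 on the log2 scale (edgeR adjusted p = 6.16e-05). In FRC1 the rise over PAR was 3.39 ± 0.41 (edgeR adjusted p = 5.12e-06). With 9 reads in PAR these SE are too small.

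Of the other class II myosins and their light chains, which are those of smooth and striated muscle, 12 of 19 were tested. There were 10 higher (83.3%, beside 13.6% of all genes) and 0 lower in FRC1 against PAR. In SRC3 against PAR 6 were higher (50%, beside 17.8%) and 1 lower (8.33%, beside 20.2%), and in SRC3 against FRC1 1 was higher (8.33%, beside 15.5%) and 11 lower (91.7%, beside 18%). Myh11, the smooth muscle heavy chain and the closest relative of Myh9 and Myh10, had 6 reads over the SRC3 libraries and 0 in FRC1 and PAR, too few for a test. Myh3, the embryonic muscle heavy chain, was at 3.34 ± 1.83 CPM in SRC3, 22.8 ± 3.25 CPM in FRC1 and 1.4 ± 0.202 CPM in PAR. Myh7, the slow muscle heavy chain, was at 1.14 ± 0.618 CPM in SRC3, 10.6 ± 1.77 CPM in FRC1 and 0.0237 ± 0.041 CPM in PAR (SD, n = 3 each). Beside these, the summed markers of differentiating muscle were 9.61 to 17.2 CPM in SRC3, 56.5 to 67.9 CPM in FRC1 and 6.89 to 9.17 CPM in PAR. Ckm of these 8 markers was at 0 in every SRC3 library, and the other 7 had reads in each population. Tmem8c, the fusion factor myomaker, ran the other way, with means of 1.16 CPM in SRC3, 3.56 CPM in FRC1 and 5 CPM in PAR, and made up most of the PAR sum. The marker list shares Myh3 and Myh7, and the part of differentiating cells in the levels of the 9 genes was not tested.

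Myl9, the regulatory light chain of smooth muscle that also serves non-muscle myosin, was at 15.5 ± 5.87 CPM in SRC3, 36.4 ± 6.99 CPM in FRC1 and 40.4 ± 0.887 CPM in PAR (SD, n = 3 each). It fell in SRC3 against PAR by 1.38 ± 0.25 (edgeR adjusted p = 0.00365) and in SRC3 against FRC1 by 1.23 ± 0.25 (edgeR adjusted p = 0.00779). Myl6b, an alternative essential light chain, rose to 19.7 ± 1.07 CPM in SRC3, against 11.8 ± 1.07 CPM in FRC1 and 9.8 ± 0.824 CPM in PAR (edgeR adjusted p = 2.36e-07 against PAR and 9.66e-06 against FRC1).

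The 4 other actins are those of muscle, and all were tested. Acta2, the actin of smooth muscle and of stress fibres in activated cells, was at 8.59 ± 5.29 CPM in SRC3, 199 ± 30.4 CPM in FRC1 and 67.2 ± 5.64 CPM in PAR (SD, n = 3 each). It fell by 2.97 ± 0.35 in SRC3 against PAR (edgeR adjusted p = 0.000674) and rose by 1.57 ± 0.25 in FRC1 against PAR (edgeR adjusted p = 0.00462). The skeletal muscle actin Acta1 was at 5.04 ± 3.47 CPM in SRC3, 34.5 ± 3.29 CPM in FRC1 and 1.33 ± 0.293 CPM in PAR, and its rise in SRC3 against PAR by 1.91 ± 0.56 (edgeR adjusted p = 0.0296) was lost without any single PAR library and without FRC1 replicate 1, with adjusted p of 0.0505 to 0.0967. Of the 4 actins 3 rose in FRC1 against PAR, in SRC3 against PAR 2 rose and 2 fell, and in SRC3 against FRC1 all 4 fell, too few genes for a share. In SRC3 against PAR 1 rose without any single PAR library or FRC1 replicate 1, and 1 fell without PAR replicate 1 or 2 or SRC3 replicate 1 or 3. The summed smooth muscle markers, which include Acta2, were 7.22 to 26 CPM in SRC3, 343 to 496 CPM in FRC1 and 166 to 198 CPM in PAR. Beside Acta2 the sum was carried by Tagln, with means of 6.6 CPM in SRC3, 217 CPM in FRC1 and 112 CPM in PAR. The markers Cnn1, Rgs5 and Pdgfrb were at or near 0.

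Of 32 actin crosslinkers, tropomyosins and filament binding proteins 29 were tested. In SRC3 against PAR 5 were higher (17.2%, beside 17.8% of all genes) and 19 lower (65.5%, beside 20.2%), with a median log2 fold change of -0.26, beside 0.0057 over all genes. Zyx, which encodes the focal adhesion and stress fibre protein zyxin, was at 576 ± 58.2 CPM in SRC3, 1172 ± 73.4 CPM in FRC1 and 1305 ± 61.2 CPM in PAR (SD, n = 3 each; edgeR adjusted p = 5.94e-10 for SRC3 against PAR). Cald1, which encodes caldesmon, an inhibitor of actomyosin, fell by 0.98 ± 0.05 in SRC3 against PAR (edgeR adjusted p = 3.42e-12). Lima1, an actin bundling protein, fell by 0.76 ± 0.05 (edgeR adjusted p = 9.1e-10). Higher in SRC3 than in PAR were Cttn, which encodes the Arp2/3 regulator cortactin, by 0.53 ± 0.04, the bundling protein Pls3 by 0.52 ± 0.05, and S100a4 by 0.44 ± 0.06, with edgeR adjusted p of 5.59e-09, 1.98e-08 and 8.1e-06. S100a4, known to bind the tail of the IIA heavy chain and to take its filaments apart, was at 239 ± 12.6 CPM in SRC3, 120 ± 10.2 CPM in FRC1 and 176 ± 8.68 CPM in PAR. In SRC3 against FRC1 4 were higher (13.8%, beside 15.5%) and 17 lower (58.6%, beside 18%). FRC1 against PAR had 5 higher (17.2%, beside 13.6%) and 3 lower (10.3%, beside 14.7%), counts that moved to 3 higher without any single PAR or FRC1 library, and to between 1 lower (without FRC1 replicate 3) and 7 lower (without SRC3 replicate 2), with 5 lower without FRC1 replicate 1 or SRC3 replicate 3.

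Actin nucleators and monomer binding proteins numbered 36, of which 33 were tested, and in SRC3 against PAR 4 were higher (12.1%, beside 17.8% of all genes), 11 lower (33.3%, beside 20.2%) and 18 did not pass. The formin Fmnl1 rose to 36.9 ± 2.07 CPM in SRC3, against 7.61 ± 0.4 CPM in FRC1 and 9.32 ± 0.924 CPM in PAR (SD, n = 3 each; edgeR adjusted p = 1.84e-12 against PAR), and Fmnl2 rose by 0.66 ± 0.07 (edgeR adjusted p = 3.76e-07). Pfn2, a profilin, fell by 2.08 ± 0.25 (edgeR adjusted p = 0.000223), and the formin Fhod3 by 1.21 ± 0.13 (edgeR adjusted p = 5.2e-07). Shares near those of all genes were found in SRC3 against FRC1, with 5 higher (15.2%, beside 15.5%) and 7 lower (21.2%, beside 18%). FRC1 against PAR had 4 higher (12.1%, beside 13.6%) and 7 lower (21.2%, beside 14.7%). The FRC1 against PAR count of higher genes was 1 or 2 without PAR replicate 1, 2 or 3 or FRC1 replicate 2 or 3, and that of lower genes was 3 without FRC1 replicate 3 and 11 without SRC3 replicate 2. Without PAR replicate 1, 2 were higher in SRC3 against PAR, and without SRC3 replicate 3, 3 were higher in SRC3 against FRC1.

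Of 24 unconventional myosins, most of which work as single motors or dimers, 13 were tested. In SRC3 against PAR 0 were higher (beside 17.8% of all genes) and 7 lower (53.8%, beside 20.2%). Myo5b, a carrier of recycling vesicles below the 5 CPM of the naming rule and named after its values were seen, had 1 read in SRC3, 79 in FRC1 and 86 in PAR. Relative to depth its PAR level was 82.0 times that in SRC3, with an exact 95% interval of 14.3 to 3275 for counting error only. Myo1d, a membrane-bound motor, fell by 0.62 ± 0.07 (edgeR adjusted p = 1.7e-06), Myo6, which walks towards the pointed end, by 0.71 ± 0.10 (edgeR adjusted p = 1.98e-05), and Myo5a, a cargo carrier, by 0.37 ± 0.04 (edgeR adjusted p = 1.54e-06). In SRC3 against FRC1 1 was higher (7.69%, beside 15.5%) and 7 lower (53.8%, beside 18%), or 4 lower without FRC1 replicate 1 or SRC3 replicate 1. FRC1 against PAR had 3 higher (23.1%, beside 13.6%) and 5 lower (38.5%, beside 14.7%), or 3 lower without PAR replicate 3 or FRC1 replicate 3. The single higher gene was not called without 7 of the 9 libraries in turn.

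**Figure D5:**
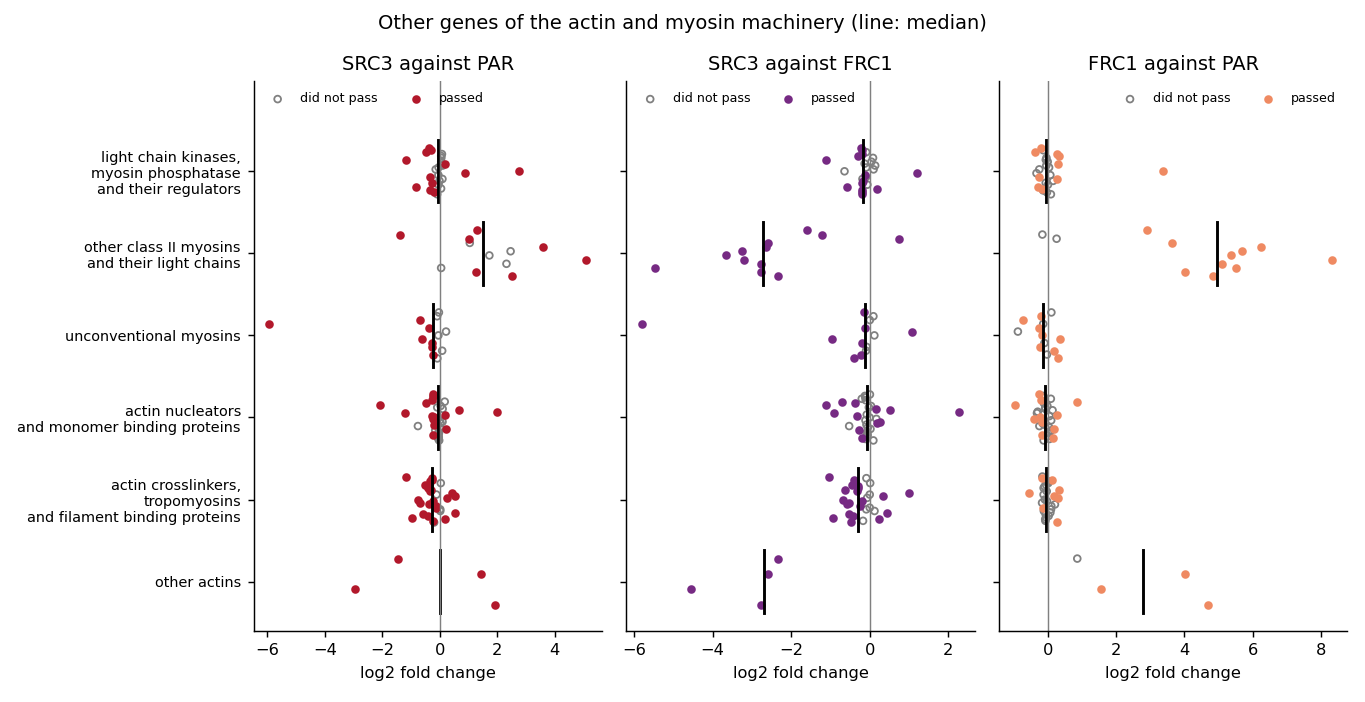
Log2 fold changes of the tested genes of the 6 lists in SRC3 against PAR, SRC3 against FRC1 and FRC1 against PAR; filled points passed, open points did not, and black lines are list medians. Crosslinkers have medians of -0.26 and -0.28 in the SRC3 panels, and in FRC1 against PAR the 10 class II myosins and light chains that passed lie above 0, while Myl9, which did not pass, is at -0.16.

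The libraries held 13012996 to 14336279 gene counts, and TMM factors lay between 0.994 and 1.012. The labelled cell type was checked against its markers. Of 6 myoblast markers all were detected, with summed levels of 1323 to 1431 CPM in SRC3, 1791 to 1949.8 CPM in FRC1 and 2103 to 2144 CPM in PAR, carried by Myod1 and Des, while Myf5 was at 0 in FRC1 and PAR and had 1 read in SRC3. The sums moved in the same direction as Myh9 and Actb in SRC3, and their part in those differences was not tested. Fibroblast markers summed to 276 to 302 CPM in SRC3, 285 to 399 CPM in FRC1 and 557 to 587 CPM in PAR, nearly all Col3a1, with Lum at 0 everywhere. Endothelial markers reached at most 0.56 CPM with Kdr at 0, and immune markers 2.2 to 4.4 CPM, nearly all Cd68, with Adgre1 at 0.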

How the data were processed

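The authors deposited read counts per gene, as whole numbers without normalization, for 9 libraries. The alignment build was GRCm38, with HISAT2 (2.1.0), HTSeq (0.9.1) and DESeq2, per the submitters' processing notes; strand setting and annotation are not given there. Stranded TruSeq mRNA libraries were sequenced as single reads of 50 bases, per the labels' protocols. Summary lines stayed out of library sizes: 5.92 to 7.92% of unique reads fell outside genes and 1.18 to 1.21% were ambiguous.

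All 9 libraries were fitted by group in edgeR 4.0.16 (R 4.3.3) with filterByExpr, TMM factors and robust two-sided quasi-likelihood tests. This left 12540 genes, with 6 residual degrees of freedom and a Benjamini-Hochberg threshold of 0.05. Each SE is the absolute log2 fold change divided by the square root of the F statistic. Such SE are too small where a large change rests on few reads, as for Myh10 in SRC3 and Mylk4 in PAR. Replicate pairs differed by more than sampling noise (chi-square per degree of freedom 1.81 to 7.47). Levels per kb used GENCODE M21 exons of GRCm38, and floors cover counting error only.

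The 9 genes and the lists were chosen with earlier results of these data known. The naming rule took all 9 genes, up to 3 passing genes per list, direction and comparison with the largest change and at least 5 CPM, then a few fixed genes by value, of which Myl9, Myh11, Ppp1r12a and S100a4 are described, the 5 genes most like Myh10 and the 5 nearest on each side; some of these appear only in the counts, and some items are not reported here. Alternatives were RLE factors, library sizes alone, no filter, 5 CPM in 3 libraries, only the groups compared, a replicate block, each library left out, limma voom (3.58.1) and DESeq2 1.42.0.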

Additional observations from a re-analysis of the deposited data

How the results depend on the processing

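Each log2 fold change of the 8 tested genes kept its direction in the SRC3 comparisons in all 135 alternative values per comparison. In FRC1 against PAR 7 of 135 changed sign, none of them passing: Myl12a ranged from -0.0300 to 0.0535 with 1 library left out, and Myl12b from -0.0466 to 0.0505, with -0.000432 under RLE factors and -0.00236 under DESeq2. Genes outside the 9 that did not pass also changed sign with 1 library left out. In FRC1 against PAR these were Pfas (-0.00559 to 0.0353), Rangrf (from -0.000213) Usp43 (-0.117 to 0.0327) and Myo5b (-0.424 to 0.192). In SRC3 against PAR they were Myh4 (-1.87 to 1.91), Pfas (-0.101 to 0.00726), Ppp1r12a (-0.0762 to 0.016) and Slc25a35 (-0.325 to 0.19). The filter of 5 CPM removed Mylk and left 1 of the 9 genes passing in FRC1 against PAR and 3 in SRC3 against PAR. Leaving out 1 library gave 2 to 3 passing in FRC1 against PAR, 3 to 6 in SRC3 against PAR and 4 to 7 in SRC3 against FRC1. Summed heavy chain ratios then ranged over 0.94 to 0.969 for FRC1 against PAR, 0.639 to 0.734 for SRC3 against PAR and 0.667 to 0.767 for SRC3 against FRC1. List counts moved by over 1.5 times in 25 of 204 values in FRC1 against PAR, 16 in SRC3 against PAR and 18 in SRC3 against FRC1. Libraries with the same replicate number correlated in their deviations at only -0.07 to 0.118. Each PAR library correlated best with its own number in FRC1 (0.085, 0.022 and 0.036) and in SRC3 (0.048, 0.055 and 0.118). Between FRC1 and SRC3 this held for replicate 1 (0.032) and not for replicates 2 (-0.055) and 3 (-0.07). Correlations this small, of deviations from means of 3 libraries, cannot decide whether the numbers pair the samples. With a replicate block the counts of passing genes were 2, 5 and 7, as without it, in FRC1 against PAR, SRC3 against PAR and SRC3 against FRC1. The counts in SRC3 hold Myh10, whose level chose the genes, and support nothing. Depth limits Myh14 and Myh11, and values of Mylk rest on 10 to 36 reads per library.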
